A study of Mus musculus with 6 samples.

Results

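The cartilage collagens are described here through the 8 genes that encode the chains of collagens II, IX, X, XI and XXVII: Col2a1, Col9a1, Col9a2, Col9a3, Col10a1, Col11a1, Col11a2 and Col27a1. The genes were taken by name from a deposited table of 28812 mouse genes, each was found once, and all 8 passed the filter on low counts. Poly(A) RNA was sequenced from chondrocytes of the mouse, the cell type of cartilage, in 6 libraries, with the genotype given as wild type and the disease state as osteoarthritis (OA). All 6 had received interleukin-1 beta (IL-1β), an inflammatory cytokine; 3 had also received vehicle and 3 had received mitochondria, which the series title traces to osteocytes. Strain, age, dose, time and the number of animals are not given in the sources used here, nor whether replicates were separate cultures, so p-values measure only the spread between these libraries. No library without IL-1β was analysed here.

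Collagen II is the main fibril-forming collagen of cartilage and is a trimer of 3 identical Col2a1 chains. Collagen XI joins the Col11a1 and Col11a2 chains with a further chain made from Col2a1, and it is known to sit in the core of thin cartilage fibrils and limit their width. Collagen IX, a trimer of Col9a1, Col9a2 and Col9a3 chains, is bound to the fibril surface. Collagen X is a short network-forming collagen of hypertrophic chondrocytes, and collagen XXVII is a fibrillar collagen of the growth plate.

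Every chain carries a stretch in which a glycine codon is followed by 2 codons for other residues again and again, the Gly-X-Y repeat of the triple helix. The repeat ran unbroken for 338 triplets in both Col11a1 and Col11a2, for 339 in Col2a1 and for 113 in each of the 3 type IX chains. In Col27a1 the longest unbroken run was 217 triplets and in Col10a1 it was 61. Much of the helix is written in exons of exactly 54 bases, or 6 triplets: 31 such exons in Col11a1, 31 in Col11a2, 24 in Col2a1, 33 in Col27a1, 14 in each type IX gene and none in Col10a1. The exons shown here are those at the same triplet of the unbroken run in partner chains, chosen because their difference in G and C content was nearest the median over the 54-base exons that the partners share. For type IX the difference was that between Col9a1 and Col9a2. Col9a3 had no part in the choice, and its exon has 68.5% G and C against a median of 64.8% over its shared exons. All exons shown are from GENCODE M21 transcripts (GRCm38), the coding strand reads 5′ to 3′, and capitals mark the glycine codons. The type XI pair begins at triplet 137 of the run and is exon 37 of both genes, at chr3:114147770-114147823 and chr17:34057400-34057453, both on the plus strand.
Col11a1: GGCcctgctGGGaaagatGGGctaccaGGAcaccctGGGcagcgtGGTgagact
Col11a2: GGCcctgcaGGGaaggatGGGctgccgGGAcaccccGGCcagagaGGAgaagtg
The type IX trio begins at triplet 23 of the run and lies in exon 21 of Col9a1 (chr1:24220744-24220797), exon 15 of Col9a2 (chr4:121046070-121046123) and exon 16 of Col9a3 (chr2:180607083-180607136), all on the plus strand.
Col9a1: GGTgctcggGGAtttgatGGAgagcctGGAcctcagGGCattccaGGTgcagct
Col9a2: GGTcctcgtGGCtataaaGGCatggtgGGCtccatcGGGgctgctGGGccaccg
Col9a3: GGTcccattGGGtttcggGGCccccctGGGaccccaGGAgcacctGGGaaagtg

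Both type XI exons encode 6 Gly-X-Y triplets and were identical at 75.9% of positions, and the whole run of 3042 bases was identical at 70.1%. Base composition differed within each collagen. The Col11a1 exon had 35 G or C bases of 54 and the Col11a2 exon 38, and Col11a2 was the richer of the pair in 26 of 31 shared exons. Over the whole transcript the difference was wider, at 48.0% GC for Col11a1 and 64.1% for Col11a2, which placed Col11a1 above 41.3% of all genes and Col11a2 above 98.6%. Among the type IX chains the transcript of Col9a1 held 52.2% GC, that of Col9a2 62.7% and that of Col9a3 59.2%. The other transcripts held 62.2% GC (Col2a1), 59.4% (Col27a1) and 50.5% (Col10a1), against a median of 49.5% over all genes. These figures are given because fold changes in this series moved with GC content, as described after the values of the chains.

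Collagen levels are given in FPKM (fragments scaled to transcript length and library depth, as the authors computed it), so that genes can be compared. Differences between the groups are log2 fold changes, positive where the mitochondria libraries were higher, with a standard error (SE) from edgeR's quasi-likelihood test on the deposited estimated counts of 17290 genes, and adjusted p-values are Benjamini-Hochberg values over all of those genes with a threshold of 0.05. Library totals were 63547854 to 66293786 deposited counts. Low counts piled up at 4, so a fragment was read as about 4 counts, and on that reading the chains rested on between 75.8 fragments (Col27a1) and 20300 fragments (Col2a1) per library. Calls over all genes depended on single libraries: 1099 genes were called higher and 1463 lower with all 6, against 130 and 316 when vehicle replicate 2 was left out, 132 and 310 when vehicle replicate 3 was, and 398 and 734 when mitochondria replicate 3 was. In these bulk samples, fewer cells of a type and less RNA per cell cannot be told apart.

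The chondrocyte label was checked against 12 marker genes, all of which passed the filter. The transcription factor Sox9, which drives the cartilage collagen genes, stood at 8.82 to 12.1 FPKM with vehicle and 13.9 to 14.8 with mitochondria. Apart from Sox9, the highest of the 12 were Prg4 (lubricin) at 72.95 to 106.5 FPKM, Comp at 27.3 to 35.5 and Cnmd at 10.7 to 13.6 over the 6 libraries. Matn3, Snorc and Chad were at or below 0.601 FPKM in every library; these 6 were named after their values were seen. Of the 12, Sox9 and Acan (the aggrecan core protein) were called higher, Hapln1 (link protein) was called lower and 9 did not pass. Acan passed in none of the 6 fits that left out a library, Sox9 in 2 and Hapln1 in 4, and with GC offsets, explained with the GC content of the chains, Hapln1 and Acan did not pass (adjusted p = 0.072 and 0.057). The fibroblast list was uneven. Col1a1 lay between 687 and 838 FPKM, Col3a1 between 173 and 252 and Pdpn between 78.4 and 131. Prrx1, Thy1 and Cd248 were at or above 16.09 FPKM in every library. Pi16, Clec3b and Fap were at or below 0.989 FPKM and Dpt at or below 1.69. Col2a1 stood at 0.142 ± 0.0128 times Col1a1 with vehicle and at 0.130 ± 0.00297 times with mitochondria (SD, n = 3 per group). Macrophage and leukocyte markers summed to 43.6 to 52.9 FPKM with vehicle and 39.9 to 49.5 with mitochondria, with none of 10 called, and Lyz2 and Cd14 were the highest of them. Endothelial markers, led by Tek and Cdh5, summed to at most 0.727 FPKM with none of 5 called, and muscle markers, led by Mylpf and Acta1, to at most 12.6 FPKM with none of 4 called.

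Markers of bone cells were measured because the series title traces the mitochondria to osteocytes. Dmp1 and Sost, which mark osteocytes, were listed at 0 in all 3 mitochondria libraries and at no more than 0.0252 FPKM with vehicle, and Phex was at or below 0.0734 FPKM in all 6. The bone and osteocyte list of 10 summed to 5621 to 6781 FPKM with vehicle and 5819 to 8446 with mitochondria, nearly all of it Spp1 (osteopontin), and 1 of the 6 tested was called, Ibsp, which fell (-2.31 ± 0.52, adjusted p = 0.022, edgeR) and passed in 2 of 6 fits with a library left out. Fibroblast markers had 2 called lower of 9, Thy1 and Prrx1, at -0.58 each (Prrx1 did not pass with GC offsets, adjusted p = 0.11; with a library left out Thy1 passed in 4 of 6 fits and Prrx1 in 3), and summed to 1128 to 1281 FPKM with vehicle and 1061 to 1231 with mitochondria. Adipocyte markers had 2 called lower of 6, Lpl and Adipoq, and summed to 21.1 to 22.6 FPKM with vehicle and 17.2 to 19.4 with mitochondria. Lpl and Adipoq each passed in 4 of 6 fits, and neither did without vehicle replicate 2 (adjusted p = 0.05 and 0.062, the first just above the threshold) or vehicle replicate 3 (0.054 and 0.075). The fit with GC offsets also called genes upward in these lists. Its counts were 1 higher and 1 lower for bone, 1 higher and 3 lower for fibroblast, and 1 higher and 2 lower for adipocyte markers. Over all genes tested that fit called 9.13% higher and 9.61% lower. The extraction text in the labels names adipose as the source of the RNA, against the chondrocyte label of all 6 samples, and this conflict could not be settled. The part of these cell types in the changes of the collagen chains was not tested.

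Of the 8 chains, Col11a1 was lower in the libraries with mitochondria, at about 0.521 times the vehicle level, and the other 7 did not pass. Estimates lay above 0 for 4 chains (Col9a2, Col11a2, Col9a3 and Col27a1) and below 0 for 4 (Col11a1, Col9a1, Col2a1 and Col10a1). Over all genes tested 8.46% were called lower and 6.36% higher, so that 1 lower and 0 higher of 8 is near the background. The median log2 fold change of the chains was 0.13, against 0.00 over all genes tested. The CPM (counts scaled to library size with TMM) of the groups did not overlap for 3 chains on the higher side (Col9a2, Col11a2 and Col27a1) and for 1 on the lower side (Col11a1), beside 19.8% and 20.9% of all genes tested.

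**Figure D1:**
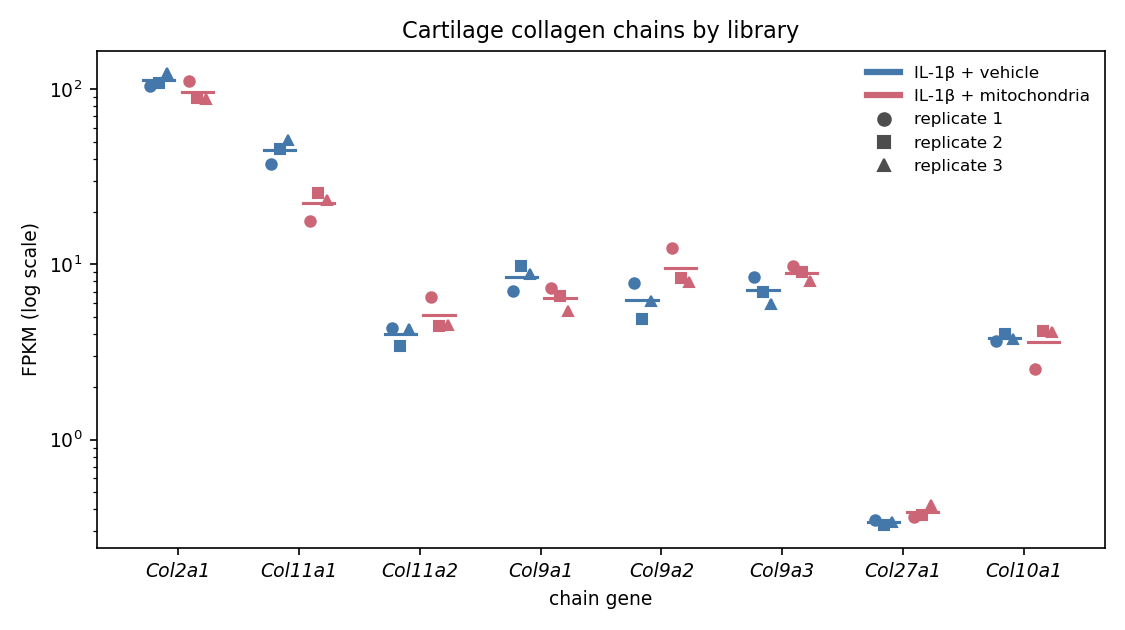
FPKM (log axis) of each chain gene in 3 vehicle libraries (blue) and 3 mitochondria libraries (red); symbols are replicates 1 to 3 and bars are group means. Col11a1 in the mitochondria libraries lies between 17.8 and 25.6 FPKM, below all vehicle libraries, and the levels of the chains range from about 0.324 (Col27a1) to 123 FPKM (Col2a1).

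Col2a1 (ENSMUSG00000022483, chromosome 15, 97975602 to 98004695, minus strand) was the most abundant chain, above 98.4% of genes with any signal. It stood at 105, 109 and 123 FPKM in vehicle replicates 1 to 3 and at 111, 88.9 and 88.1 FPKM in mitochondria replicates 1 to 3. Mitochondria replicate 1 lay inside the vehicle range and the other two lay below it. The log2 fold change was -0.16 ± 0.11 (SE; 95% interval -0.41 to 0.09, adjusted p = 0.37, edgeR). It was -0.27 without mitochondria replicate 1 (adjusted p = 0.046).

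Col11a1 (ENSMUSG00000027966, chromosome 3, 114030540 to 114220718, plus strand) was the second most abundant chain. It stood at 37.4, 45.7 and 51.5 FPKM with vehicle and at 17.8, 25.6 and 23.4 FPKM with mitochondria. The groups did not overlap: the highest mitochondria library was below the lowest vehicle library. Col11a1 fell from 44.9 ± 7.08 to 22.3 ± 4.03 FPKM (SD, n = 3), a log2 fold change of -0.94 ± 0.15 (SE; 95% interval -1.29 to -0.59, adjusted p = 0.0087, edgeR), and 9.58% of the genes tested had a lower estimate. It passed in 6 of 6 fits that left out a library, with estimates of -1.06 to -0.80 and adjusted p-values of 0.0051 to 0.045.

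Col11a2 (ENSMUSG00000024330, chromosome 17, 34039437 to 34066685, plus strand), the partner chain of Col11a1, was much less abundant. It stood at 4.35, 3.41 and 4.25 FPKM with vehicle and at 6.55, 4.48 and 4.48 FPKM with mitochondria. All mitochondria libraries lay above the vehicle range, replicates 2 and 3 by little. The log2 fold change was 0.44 ± 0.18 (SE; 95% interval, unadjusted, 0.04 to 0.84), which did not pass after adjustment (adjusted p = 0.13, edgeR). With a library left out it ranged from 0.23, without mitochondria replicate 1, to 0.53.

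The balance of the type XI chains did not overlap between the groups. Col11a1 stood at 8.61, 13.4 and 12.1 times the FPKM of Col11a2 in the vehicle libraries and at 2.72, 5.72 and 5.23 times in the mitochondria libraries. Every mitochondria library was below every vehicle library, and the mean ratio went from 11.4 ± 2.48 to 4.55 ± 1.61 (SD, n = 3). The difference of the log2 ratios was -1.37 (exact two-sided permutation p = 0.10, adjusted 0.18 over 11 such quantities). With 3 libraries against 3 this test cannot go below 0.10. No ratio between chains given here was corrected for the trend on GC content that is described below. Mitochondria replicate 1, where that trend was largest, had the lowest ratio of the 6 libraries. Without that library the log2 difference was -1.03. The summed FPKM of the type XI chains stood at 0.434 ± 0.0301 times that of Col2a1 with vehicle and at 0.291 ± 0.0633 times with mitochondria, without overlap (log2 difference -0.60, exact permutation p = 0.10, adjusted 0.18).

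Col9a1 (ENSMUSG00000026147, chromosome 1, 24177610 to 24252684, plus strand), the type IX chain that reaches out from the fibril surface, stood at 7.00, 9.80 and 8.78 FPKM with vehicle. With mitochondria it stood at 7.33, 6.58 and 5.44 FPKM. Mitochondria replicate 1 lay inside the vehicle range and the others below it, and the change did not pass (log2 -0.33 ± 0.15 SE, 95% interval -0.68 to 0.02, adjusted p = 0.18, edgeR).

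Col9a2 (ENSMUSG00000028626, chromosome 4, 121039385 to 121055322, plus strand) stood at 7.82, 4.87 and 6.22 FPKM with vehicle and at 12.4, 8.38 and 7.97 FPKM with mitochondria. The groups did not overlap, though vehicle replicate 1 (7.82) was close to the lowest mitochondria library (7.97). The log2 fold change was 0.67 ± 0.22 (SE; 95% interval, unadjusted, 0.17 to 1.17, adjusted p = 0.075, edgeR), the largest upward estimate among the chains. With DESeq2 it was 0.66 and passed (adjusted p = 0.013). Without mitochondria replicate 1 it was 0.44 (adjusted p = 0.15), the lowest of a range that reached 0.87 with a library left out.

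Col9a3 (ENSMUSG00000027570, chromosome 2, 180597790 to 180622189, plus strand) stood at 8.52, 6.94 and 5.96 FPKM with vehicle and at 9.83, 9.01 and 8.01 FPKM with mitochondria. Vehicle replicate 1 lay above mitochondria replicate 3, so the groups overlapped. The log2 fold change was 0.39 ± 0.15 (SE, 95% interval, unadjusted, 0.04 to 0.74, adjusted p = 0.12, edgeR). Without vehicle replicate 1 it was 0.55 and passed, just under the threshold (adjusted p = 0.050). Its exons share 234 bases with Tcfl5 on the opposite strand; the counting is not stated to use strand, and Tcfl5 itself stood at 1.43 to 2.19 FPKM with no call (adjusted p = 0.81).

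Within type IX, Col9a1 stood lower relative to both partners in every mitochondria library. Col9a1 stood at 0.896, 2.01 and 1.41 times Col9a2 in the vehicle libraries and at 0.593, 0.785 and 0.683 times in the mitochondria libraries. Against Col9a3 it stood at 0.822, 1.41 and 1.47 times with vehicle and at 0.746, 0.730 and 0.680 times with mitochondria. Neither ratio overlapped between groups, with vehicle replicate 1 nearest to the mitochondria libraries in both (means 1.44 ± 0.559 and 0.687 ± 0.0961 against Col9a2, 1.24 ± 0.359 and 0.718 ± 0.0345 against Col9a3, SD, n = 3; exact permutation p = 0.10 and adjusted 0.18 for each). The ratio of Col9a2 to Col9a3 overlapped, at 0.887 ± 0.173 with vehicle and 1.06 ± 0.173 with mitochondria (SD, n = 3; exact permutation p = 0.40, adjusted 0.44). The 3 type IX chains together stood at 0.197 ± 0.0264 times Col2a1 with vehicle and at 0.260 ± 0.0144 times with mitochondria, without overlap (log2 difference 0.41, exact permutation p = 0.10, adjusted 0.18).

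**Figure D2:**
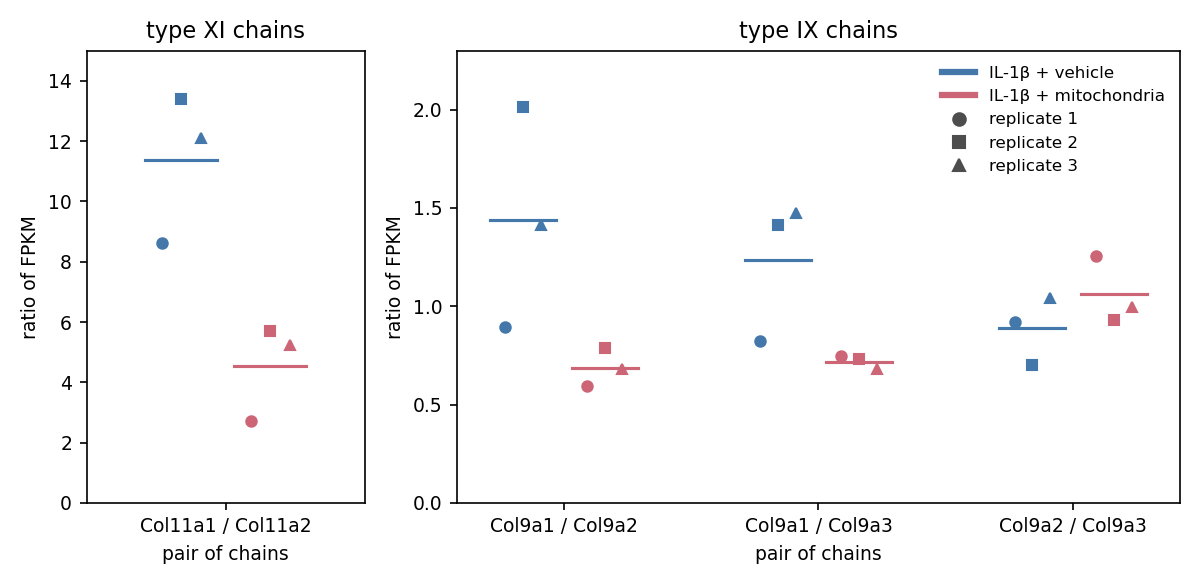
Ratio of FPKM between partner chains in each library, for type XI (left) and type IX (right); symbols are replicates 1 to 3, blue is vehicle, red is mitochondria and bars are group means. The ratio of Col11a1 to Col11a2 is 8.61 or more in the vehicle libraries and 5.72 or less in the mitochondria libraries, while Col9a2 to Col9a3 overlaps.

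Col27a1 (ENSMUSG00000045672, chromosome 4, 63214004 to 63333749, plus strand) was the least abundant chain. It stood at 0.348, 0.324 and 0.337 FPKM with vehicle and at 0.361, 0.369 and 0.424 FPKM with mitochondria. The groups did not overlap, but the change did not pass (log2 0.27 ± 0.17 SE, 95% interval -0.12 to 0.65, adjusted p = 0.32, edgeR).

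Col10a1 (ENSMUSG00000039462, chromosome 10, 34389981 to 34397085, plus strand) stood at 3.66, 4.03 and 3.76 FPKM with vehicle and at 2.54, 4.19 and 4.10 FPKM with mitochondria. Mitochondria replicate 1 lay below all vehicle libraries and the other two lay above them, so that no shift of the group was seen (log2 -0.01 ± 0.19 SE, 95% interval -0.45 to 0.43, adjusted p = 0.98, edgeR). Without mitochondria replicate 1 the estimate was 0.19 (adjusted p = 0.33). The gene lies inside Nt5dc1, which runs on the opposite strand and shares 18 exonic bases with it; Nt5dc1 stood at 1.95 to 3.57 FPKM with no call (adjusted p = 0.41).

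In the vehicle libraries the order of mean levels was Col2a1, Col11a1, Col9a1, Col9a3, Col9a2, Col11a2, Col10a1 and Col27a1. The ranges of neighbours overlapped between Col9a1 and Col9a3, between Col9a3 and Col9a2, and between Col11a2 and Col10a1. In the mitochondria libraries the order was Col2a1, Col11a1, Col9a2, Col9a3, Col9a1, Col11a2, Col10a1 and Col27a1, with overlap between Col9a2 and Col9a3 and between Col9a1 and Col11a2. The summed FPKM of the 8 chains was 187 ± 15.4 with vehicle and 152 ± 13.5 with mitochondria, without overlap (SD, n = 3; log2 difference -0.30, exact permutation p = 0.10, adjusted 0.18). Col2a1 made up 59.95% ± 0.614 of that sum with vehicle and 62.8% ± 3.004 with mitochondria (exact permutation p = 0.20, adjusted 0.28). That difference of 2.88 percentage points was 1.22 without mitochondria replicate 1, and 7.46, without overlap, when shares were taken from CPM, which is not scaled to length (exact permutation p = 0.10). Col27a1 and Col10a1 relative to Col2a1 overlapped between groups (exact permutation p = 0.20 and 0.80, adjusted 0.28 and 0.80), as did Col2a1 relative to Col1a1 (exact permutation p = 0.30, adjusted 0.37).

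**Figure D3:**
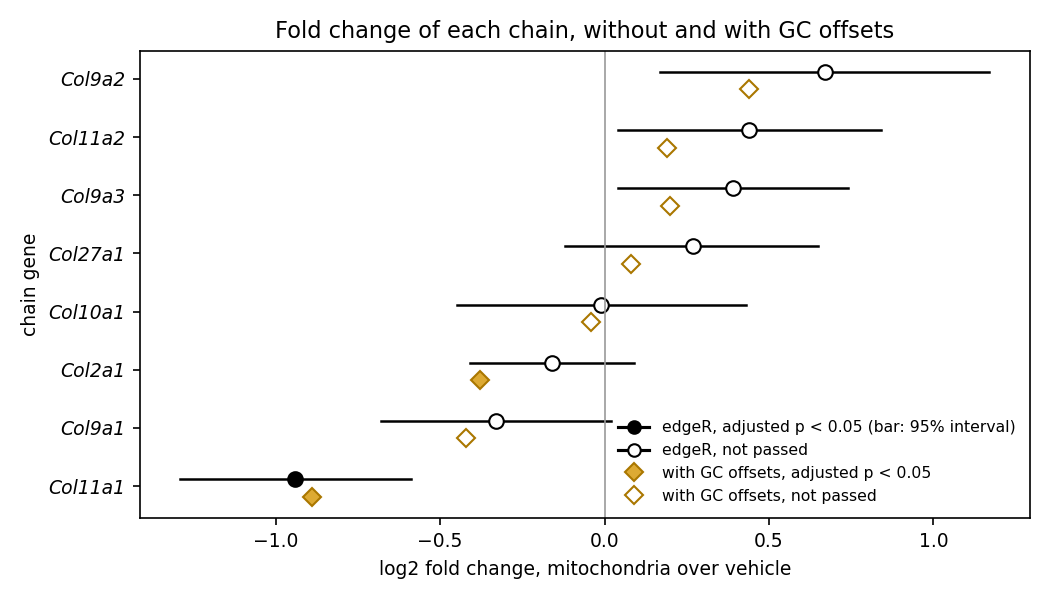
Log2 fold change of each chain, mitochondria over vehicle, from edgeR (circles, bars are 95% intervals) and from the fit with GC offsets (diamonds); filled symbols passed the threshold. Col11a1 is filled in both fits, at -0.94 and -0.89, and Col2a1 only with GC offsets, at -0.38.

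Transcript GC content moved with the fold changes of the series. Over genes tested with under 40% GC the median log2 fold change was -0.81, over those with 45 to 50% it was -0.06, and over those with 60% or more it was 0.21. The trend was largest in mitochondria replicate 1, where genes of 60% GC or more lay 0.26 above their mean over the 6 libraries on the log2 scale (median) and genes under 45% lay -0.45 from it. In the other 5 libraries the same medians were -0.11 to 0.04 and -0.07 to 0.20. Mitochondria replicate 1 was also the highest of the 6 libraries for Col9a2, Col9a3 and Col11a2, and the lowest for Col11a1 and Col10a1. Across the 8 chains, which share the same libraries and are not independent replicates, the log2 fold change and the GC content correlated with a Pearson r of 0.79 and a Spearman rho of 0.76.

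With offsets that remove each library's trend on GC content, Col11a1 fell by nearly the same amount and Col2a1 passed as well. Col11a1 changed by -0.89 ± 0.13 (SE; adjusted p = 0.0029, edgeR with GC offsets). Col2a1 changed by -0.38 ± 0.07 (adjusted p = 0.0087, edgeR with GC offsets). The upward estimates shrank to 0.44 for Col9a2, 0.20 for Col9a3, 0.19 for Col11a2 and 0.08 for Col27a1, and none of these passed (adjusted p = 0.11, 0.34, 0.31 and 0.80), nor did Col9a1 at -0.42 (adjusted p = 0.065). The count was thus 2 lower and 0 higher of 8, where 9.61% of all genes were called lower and 9.13% higher in that fit. The Pearson r of the chains' fold changes with GC content was 0.70 with the offsets. With GC and length offsets together, chosen after seeing the data, the fall of Col11a1 was smaller, at -0.66 (adjusted p = 0.0044, edgeR). Col2a1 changed by -0.28 in that fit (adjusted p = 0.029).

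**Figure D4:**
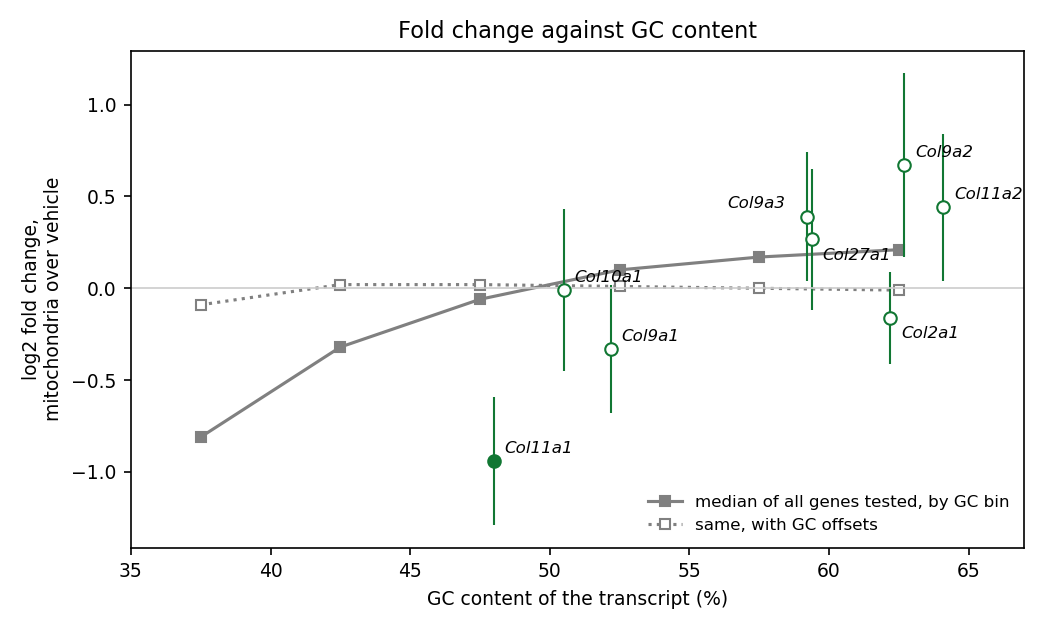
Log2 fold change, mitochondria over vehicle, against the GC content of the transcript: green circles are the 8 chains with 95% intervals (filled where the threshold was passed), and grey squares are medians of all genes tested in 6 GC bins, drawn at nominal bin positions, without (solid) and with (dotted) GC offsets. Col11a1, at 48.0% GC, lies at -0.94 where genes of 45 to 50% GC have a median of -0.06.

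Regulators of the chain genes moved in both directions. Of 19 transcription regulators tested, 2 were higher and 4 lower, beside 6.36% higher and 8.46% lower of all genes tested. Their median log2 fold change was -0.32 against 0.00 over all genes tested. Sox9 rose by 0.54 ± 0.13 (SE; adjusted p = 0.028, edgeR), and its partner on cartilage enhancers, Sox6, fell from 2.95 ± 0.505 to 1.39 ± 0.291 FPKM (SD, n = 3; adjusted p = 0.011, edgeR). Arid5b, a cofactor of Sox9, fell from 13.3 ± 1.02 to 8.18 ± 0.977 FPKM (adjusted p = 0.011), and Trps1, a repressor with a role in chondrocyte maturation, changed by -1.07 ± 0.21 (adjusted p = 0.015). Wwp2, a ubiquitin ligase that acts with Sox9, rose by 0.43 ± 0.10 (adjusted p = 0.024). The remaining call was Foxc1, a forkhead factor, at -0.44 ± 0.11 (adjusted p = 0.027). No regulator was called when either vehicle replicate 2 or vehicle replicate 3 was left out.

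Enzymes that hydroxylate collagen chains were among the genes called in both directions. Of 24 genes for processing and secretion, 6 were higher and 1 lower (median 0.09), beside 6.36% higher and 8.46% lower of all genes tested. Plod1, a lysyl hydroxylase, rose from 105 ± 13.8 to 170 ± 23.2 FPKM (SD, n = 3; adjusted p = 0.0097, edgeR). The prolyl hydroxylase subunits P4ha1 and P4hb rose by 0.49 ± 0.09 and 0.50 ± 0.10 (SE; adjusted p = 0.013 and 0.015), while the subunit P4ha3 changed by -0.57 ± 0.12 (adjusted p = 0.020). Leaving out either of the same 2 vehicle libraries left none of the 24 called.

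Of 13 genes for propeptide removal and crosslinking, 2 were lower and 0 higher (median -0.07), beside 8.46% lower and 6.36% higher of all genes tested. Adamts3, a protease that removes the amino-terminal propeptide of collagen II, went from 1.204 ± 0.0875 to 0.435 ± 0.174 FPKM (SD, n = 3; log2 -1.39 ± 0.28 SE, adjusted p = 0.017, edgeR). Loxl4, a lysyl oxidase that crosslinks collagen, changed by -0.54 ± 0.11 (adjusted p = 0.017). Their adjusted p-values were 0.077 and 0.078 without vehicle replicate 2, and 0.067 and 0.084 without vehicle replicate 3; Loxl4 also missed the threshold when mitochondria replicate 3 was left out (0.061). The counts were 5 lower and 1 higher with GC offsets, 5 lower without mitochondria replicate 1, and 2 lower and 2 higher without vehicle replicate 1.

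Partners on the fibril split evenly, with 6 of 24 higher and 6 lower (median 0.12), beside 6.36% higher and 8.46% lower of all genes tested. Prelp, a leucine-rich proteoglycan that binds collagen, fell from 168 ± 20.97 to 97.3 ± 3.14 FPKM (SD, n = 3; adjusted p = 0.0053, edgeR). The fibril-associated collagens Col12a1 and Col14a1 changed by -0.66 ± 0.09 and -0.86 ± 0.16 (SE; adjusted p = 0.0053 and 0.012), and matrilin Matn2 rose by 1.01 ± 0.16 (adjusted p = 0.0076). Prelp, Col12a1 and Matn2 passed in 6 of 6 fits with a library left out, and Col14a1 in 4. The list counts were 1 higher and 2 lower without vehicle replicate 2, the same without vehicle replicate 3, and 5 higher and 3 lower without mitochondria replicate 3. With GC and length offsets together Col12a1 did not pass (adjusted p = 0.12). Of the type I collagen chains Col1a2 fell from 217 ± 18.2 to 151 ± 12.4 FPKM (adjusted p = 0.015), a call lost when vehicle replicate 2 (0.064), vehicle replicate 3 (0.084) or mitochondria replicate 3 (0.06) was left out, and Col1a1 did not pass.

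Of 7 collagen receptors, 3 were lower and 0 higher (median -0.38), beside 8.46% lower and 6.36% higher of all genes tested. Ddr2, a tyrosine kinase receptor that binds fibrillar collagen, fell from 40.5 ± 2.51 to 22.8 ± 5.33 FPKM (SD, n = 3; adjusted p = 0.019, edgeR). The integrin subunits Itga1 and Itga10, the latter a collagen II receptor of chondrocytes, changed by -1.35 ± 0.28 and -0.81 ± 0.18 (SE; adjusted p = 0.019 and 0.023). None of the 3 passed when vehicle replicate 2, vehicle replicate 3 or mitochondria replicate 3 was left out, nor Itga10 when vehicle replicate 1 was. In the fit with GC offsets, 4 receptors were lower and 1 higher.

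Enzymes that cleave collagen and their inhibitors had 3 higher and 3 lower of 15 (median 0.12), beside 6.36% higher and 8.46% lower of all genes tested. The stromelysins Mmp3 and Mmp10 rose by 0.73 ± 0.09 and 1.87 ± 0.30 (SE; adjusted p = 0.0047 and 0.0085, edgeR), and the gelatinase Mmp9 by 1.64 ± 0.16 (adjusted p = 0.0031). Timp3, an inhibitor of metalloproteinases held in the matrix, fell from 120 ± 22.4 to 55.9 ± 4.12 FPKM (SD, n = 3; adjusted p = 0.0046). These 4 passed in 6 of 6 fits with a library left out. The other calls were the collagen-cleaving protease genes Ctsk and Mmp14, at -0.33 ± 0.09 and -0.28 ± 0.08 (adjusted p = 0.04 and 0.049, edgeR). Mmp13 and Mmp8, which also encode collagen-cleaving enzymes, did not pass, at 0.12 ± 0.16 and -0.06 ± 0.46 (adjusted p = 0.67 and 0.95, edgeR). Mmp13 stood at 702 to 871 FPKM with vehicle and 594.5 to 927 with mitochondria, and Mmp8 was at or below 0.47 FPKM. The list had 1 lower gene with the replicate block and in each fit with a library left out except that without mitochondria replicate 1, where 4 were lower. With GC offsets 5 were higher and 4 lower.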

How the data were processed

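The authors' table holds FPKM per gene and library, scaled to length and depth by the authors, and estimated counts, which the authors deposited without normalisation, as integers. HISAT2 2.0, StringTie 1.3.0, Bowtie 0.12.2 and mm8 are listed, with no role or order, per the submitters' processing notes. The table's coordinates match GENCODE M21 on GRCm38: 28732 of 28812 identifiers were found and 90.2% of those had the same start and end (7 of the 8 chains; Col27a1 ends elsewhere there), so coordinates are given as 1-based GRCm38 positions.

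Counts were fitted in R 4.3.3 with edgeR 4.0.16: TMM, filterByExpr with a minimum count of 10, no covariate beside the group, and the quasi-likelihood test (two-sided). The SE was derived from the log2 fold change and its F statistic. The fit was also run on simulated counts with the same dispersion for every gene. Those counts held no trend on GC content and no pile-up of low counts, so that run does not bear on either. GC offsets came from a lowess fit (span 0.3) of each library on the GC content of the transcript with the longest coding sequence. GC content was available for the 28732 genes found, and the lowess fit used those tested genes with a mean CPM above 1. Alternatives used DESeq2 1.42.0 and limma 3.58.1 on log2(FPKM + 1). Balances used exact permutation over 20 assignments. Named list genes are those past the threshold, at most the 4 with the smallest adjusted p per list, and for a marker list with none, its 2 highest; Sox9 comes in as a chondrocyte marker. Foxc1, Ctsk, Mmp14, Mmp13 and Mmp8 fall outside that rule, as do the markers named without passing in the chondrocyte, fibroblast and bone lists. All of these were named after their values were seen. The members and lists were chosen with earlier results of these data known.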

Additional observations from a re-analysis of the deposited data

How the results depend on the processing

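The fall of Col11a1 passed in 16 of 17 alternatives, at -1.06 to -0.66, the last with GC and length offsets. It failed with limma on log2(FPKM + 1) without a filter (-0.98, adjusted p = 0.053). Col2a1 passed with GC offsets (-0.38), with GC offsets and the replicate block (-0.38), with GC and length offsets, an alternative chosen after seeing the data (-0.28), and without mitochondria replicate 1 (range with a library left out -0.27 to -0.09). Col9a2 passed with DESeq2 (0.66), with the replicate number as a block (0.67) and with GC offsets and that block (0.45). With a library left out Col9a3 ranged from 0.28 to 0.55 and passed only without vehicle replicate 1. Col10a1 ranged from -0.13 to 0.19 in those fits, being above 0 without vehicle replicate 2 (0.02) and without mitochondria replicate 1 (0.19). Chains called numbered 1 higher with DESeq2, with the replicate block, and with GC offsets and that block, and 0 to 1 higher and 1 to 2 lower with a library left out; 2 were lower with GC offsets, with or without the block, and with GC and length offsets, and 0 with the unfiltered limma fit. Ratios between chains kept their direction in 97 of 99 alternatives, none of which used GC offsets. Col10a1 to Col2a1 turned to -0.06 without mitochondria replicate 2 and -0.05 without mitochondria replicate 3 (range -0.06 to 0.46).

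Over all genes, 357 were higher and 507 lower with no filter on counts, and 161 and 301 in the unfiltered limma fit; with a library left out 130 to 1086 were higher and 310 to 1694 lower. Genes of the pathway lists numbered 17 higher and 20 lower, and 7 and 8, then 1 and 5, in those unfiltered fits, 26 higher with GC and length offsets, and 4 to 18 higher and 3 to 27 lower with a library left out. Same-number libraries correlated at 0.0371, 0.00907 and -0.0152 once group means were removed and the other pairs at -0.0314 to 0.0257, so the numbers were not taken to pair the samples; with the replicate block 898 genes were higher and 1386 lower. The lowest count of any chain in a library was that of Col27a1, at 303.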

Other observations

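For each chain, the genes whose log2 CPM followed it most closely over the 6 libraries were looked up among 6600 other genes with a mean of at least 5 FPKM. The points share their libraries and group difference, so the names are a description. Col11a1 was followed most closely by Sntb2 and Egfr (Pearson r = 0.999 and 0.998 over 6 libraries). Both were lower with mitochondria (log2 -0.45 and -0.49, edgeR adjusted p = 0.025 and 0.018). Col2a1 was followed by Flnc (r = 0.990), Col9a1 by Tgm2 and Axl (0.990 and 0.969), and Col10a1 by Gpx8 and Polr2b (0.992 and 0.991). Col11a2 was followed by Sf3a2 and Pld3 (0.999 and 0.997), Col9a2 by Sbsn and Ncs1 (0.997 and 0.996), Col9a3 by Rab31 and Smg8 (0.993 and 0.992) and Col27a1 by Gm7206 and Uba2 (0.986 and 0.977). None of the other genes named beside a chain here passed the threshold.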
